A study of Mus musculus with 2 samples.

Results

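The 36 genes described here are type I interferon-stimulated genes, a list taken from general knowledge of the pathway and not from the values measured in these tumors. Of these, 34 had a row among the 32285 genes of the deposited count tables, and Mx1 and Mx2 were not analysed here. All 34 were read in every cell class and summed into 1 level.

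The libraries came from Lewis lung carcinoma (LLC) tumors, a mouse cancer line grown under the skin of C57BL/6 mice, and asked how the tumor and its stroma differ when pericytes lose soluble guanylate cyclase (sGC), the receptor of nitric oxide. Hosts labelled sGC Ctr carried Gucy1b1 flox/flox and no Cre. Hosts labelled sGC ∆PC carried Gucy1b1 flox/flox as well and Cspg4-CreERT2, a tamoxifen-inducible Cre under the Cspg4 promoter, which is active in pericytes and can be active in other cells that express Cspg4. Mice of both groups were given 5 tamoxifen doses when 4 weeks old, were inoculated when 8 weeks old, and their tumors were dissected 2 weeks later. The cancer cells themselves carry neither allele. Cells of 3 tumors were pooled into 1 library per group, so that no spread between animals can be given: every value below compares 1 library with 1 library, no test was possible, and the 95% intervals are exact and cover counting error only.

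Type I interferons, interferon-beta and the interferon-alphas, are secreted when a cell senses foreign or misplaced nucleic acid. They bind the receptor made of Ifnar1 and Ifnar2, whose kinases Jak1 and Tyk2 start the signal. A transcription factor complex that holds Irf9 then binds the interferon-stimulated response element (ISRE) of target promoters, and the proteins made then restrict viruses, raise the cell's sensors, or end the signal. In tumors the same genes are known as a trace of interferon made inside or outside the tumor, and they differ in how much of them a resting cell makes.

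The promoters of some members are shown because ISRE letters were found in a larger share of the list's promoters than of all promoters, and Lgals3bp, which has none, is shown beside them. The stretches run from base -200 to base -41 before the start site, 5′ to 3′ in the direction of the gene, from RefSeq on GRCm38.p6. Capitals mark each match, on either strand, to GAAA, any 2 bases and GAAA again. They lie at chr4:156200859-156201018 (minus strand) for Isg15, chr19:34640689-34640848 (plus) for Ifit1, chr19:34583329-34583488 (plus) for Ifit3, chr19:34607757-34607916 (plus) for Ifit3b, chr12:26456493-26456652 (minus) for Rsad2, chr8:71537513-71537672 (minus) for Bst2 and chr11:118402000-118402159 (minus) for Lgals3bp.
Isg15: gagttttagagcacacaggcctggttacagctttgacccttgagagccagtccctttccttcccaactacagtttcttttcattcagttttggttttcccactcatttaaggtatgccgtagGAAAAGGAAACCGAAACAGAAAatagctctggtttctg
Ifit1: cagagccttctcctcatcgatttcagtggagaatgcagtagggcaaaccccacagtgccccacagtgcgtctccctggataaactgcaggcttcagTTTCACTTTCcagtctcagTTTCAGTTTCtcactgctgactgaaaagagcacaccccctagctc
Ifit3: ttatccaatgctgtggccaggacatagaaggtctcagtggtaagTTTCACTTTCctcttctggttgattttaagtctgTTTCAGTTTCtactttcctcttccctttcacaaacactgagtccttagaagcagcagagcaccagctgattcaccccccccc
Ifit3b: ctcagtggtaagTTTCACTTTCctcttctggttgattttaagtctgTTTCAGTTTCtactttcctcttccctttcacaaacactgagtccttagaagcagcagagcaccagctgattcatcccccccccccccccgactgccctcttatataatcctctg
Rsad2: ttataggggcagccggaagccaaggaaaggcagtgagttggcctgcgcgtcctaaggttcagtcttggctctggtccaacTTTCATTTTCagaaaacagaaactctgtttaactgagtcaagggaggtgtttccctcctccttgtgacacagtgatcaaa
Bst2: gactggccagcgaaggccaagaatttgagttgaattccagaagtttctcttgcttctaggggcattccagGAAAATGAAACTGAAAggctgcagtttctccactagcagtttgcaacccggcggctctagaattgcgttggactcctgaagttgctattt
Lgals3bp: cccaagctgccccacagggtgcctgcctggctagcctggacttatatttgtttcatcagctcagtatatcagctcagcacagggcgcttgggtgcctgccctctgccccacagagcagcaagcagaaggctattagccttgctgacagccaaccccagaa

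Isg15 held 3 overlapping matches in 1 run, Bst2 held 2 overlapping ones, and Ifit1, Ifit3 and Ifit3b each held 2 separate matches. The stretches of Ifit3 and Ifit3b shared an unbroken run of 119 bases. Rsad2 held 1 match and Lgals3bp none. The span of Lgals3bp in GENCODE vM21 reaches chr11:118402092 (minus strand), so part of its stretch lies within the gene as annotated there. Promoter windows of 300 bases were at hand for 26 of the 36 genes, and 15 of these 26 (57.7%) held the ISRE letters, against 3.99% of 27025 genes. The GAS letters TTCNNNGAA, an element of promoters that respond to interferon-gamma, were in 5 of the 26 (19.2%) and in 9.55% of all genes. A match of letters describes the window and is no measure of binding.

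Several members are neighbors in the genome. Ifit2, Ifit3, Ifit3b and Ifit1 lie in a row at chr19:34550694-34650009, and Ifi207, Ifi204 and Ifi203 at chr1:173723427-173942672 (gene spans of GENCODE vM21, mm10). Rsad2 and Cmpk2 face away from each other at chr12:26442746-26479837. Reads that match several genes are dropped by the counting program, so levels of the near-identical Ifit3 and Ifit3b, of the Ifi200 genes and of the Oas genes are uncertain, and may be too low.

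The tables held 15007 barcodes for sGC Ctr and 25631 for sGC ∆PC, and 12220 and 22498 stayed after the filters. The sGC Ctr library was deeper, with a median of 35776.5 unique molecules (UMIs) per kept barcode against 8685 in sGC ∆PC, and 98 kept barcodes occurred in both libraries. Cell classes were set by marker gates, for example Csf1r, C1qa and Adgre1 for macrophages, and the class names below are short for cells that passed those gates. As a check of the labels, Gucy1b1 gave 55 UMIs in 33 sGC Ctr pericytes and 11 UMIs in 25 sGC ∆PC pericytes, or 135 and 48.1 counts per 1000000 UMIs of the class (CPM), with a log2 ratio, sGC ∆PC over sGC Ctr, of -1.49 (interval -2.57 to -0.54). The gene was thus lower but present in pericytes of sGC ∆PC.

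Among the 8 classes with at least 25 cells in each library, leaving conventional dendritic cells aside, the summed members differed far more between classes than between the 2 libraries. In sGC Ctr the sum was 4068 CPM in monocytes, 2888 in granulocytes, 2073 in T cells, 1367 in macrophages, 1196 in endothelial cells (ECs), 969 in fibroblasts, 941 in pericytes and 295 in cancer cells. In sGC ∆PC it was 4328 CPM in monocytes, 3287 in granulocytes, 1977 in T cells, 1765 in ECs, 1280 in macrophages, 1213 in fibroblasts, 1059 in pericytes and 331 in cancer cells. Of these 8, monocytes were highest and cancer cells lowest in both libraries, and only ECs and macrophages changed places. With classes from Leiden clusters, granulocytes (3761 and 3679 CPM) stood above monocytes (3569 and 3482 CPM), and cancer cells stayed lowest. Neighbors whose counting intervals overlapped were fibroblasts and pericytes in sGC Ctr (929 to 1010 and 849 to 1040 CPM), and in sGC ∆PC the pairs T cells and ECs, macrophages and fibroblasts, and fibroblasts and pericytes.

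**Figure D1:**
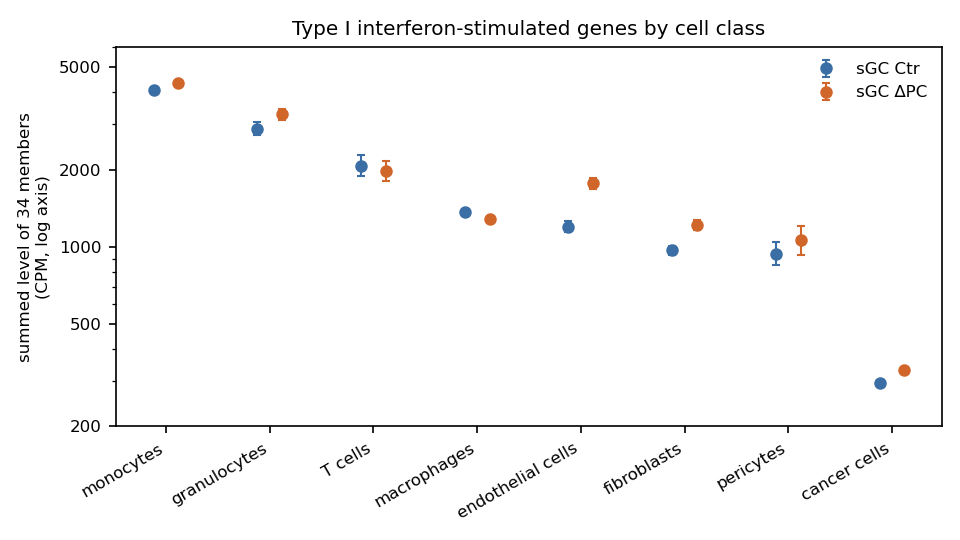
Summed level of the 34 members in CPM on a log axis (y) in 8 cell classes (x) of sGC Ctr (blue) and sGC ∆PC (orange); points are the pooled cells of 1 library and bars are exact 95% counting intervals. Monocytes sit at 4068 and 4328 CPM and cancer cells at 295 and 331 CPM, while the largest fold between the libraries within one of these 8 classes is 1.48, in ECs.

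Small classes gave further levels, and are in no ranking of the 8 classes. The 43 and 50 conventional dendritic cells of sGC Ctr and sGC ∆PC held 1907 and 1881 CPM. The 6 and 8 plasmacytoid dendritic cells, the cells known for making interferon-alpha, held 4504 and 3810 CPM (intervals 3865 to 5219 and 3186 to 4521), and these intervals overlapped those of monocytes in both libraries. Bst2, a surface marker of that cell type, was the leading member there, with 98 and 104 UMIs or 2494 and 3025 CPM. The 11 and 7 natural killer cells (1108 and 2247 CPM) and the 6 and 3 B cells (1368 and 575 CPM) were too few for more than these values.

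The leading members differed between classes. Ifi27l2a, a small protein of mitochondrial and nuclear membranes, led monocytes with 1246 CPM in sGC Ctr and 1306 CPM in sGC ∆PC, T cells with 873 and 647 CPM, and macrophages with 281 and 271 CPM. Granulocytes were led by Isg15, a ubiquitin-like modifier, with 703 and 922 CPM, and by Rsad2 (viperin), which makes a chain-terminating nucleotide, with 470 and 578 CPM. Bst2 (tetherin), which holds budding virus at the cell surface, led ECs with 365 and 595 CPM and cancer cells with 128 and 132 CPM. Fibroblasts and pericytes were led by Lgals3bp, a secreted galectin-binding glycoprotein, which shared its level with Ifi203, a DNA-binding member of the Ifi200 family, in pericytes of sGC Ctr. Over both libraries, Ifi204 of the same family came next in fibroblasts, at 82.7 and 110 CPM, and Ifi203 in pericytes, at 130 and 166 CPM. Lgals3bp was at 161 and 141 CPM in fibroblasts and at 130 and 179 CPM in pericytes.

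Among the 8 classes, the highest one of a member was most often myeloid. Of the 34 members, monocytes held the highest level of 16 genes in the sGC Ctr library and of 15 in that of sGC ∆PC, and granulocytes of 12 in each. Cancer cells held the lowest level of 21 and 18 members. Bst2 and Phf11d were highest in ECs in both libraries among these 8, though Bst2 was far higher in the plasmacytoid dendritic cells, and Bst2 was lowest in granulocytes (41.9 and 26.8 CPM). Ifi203 had no UMI in granulocytes of sGC Ctr, which allows up to 6.98 CPM, against 217 CPM in T cells of that library. In sGC ∆PC, pericytes held the lowest level of 8 members, among them Rsad2 and Oas2 without a UMI there. Such counts were not made over all genes, so they give no contrast between the members and other genes.

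**Figure D2:**
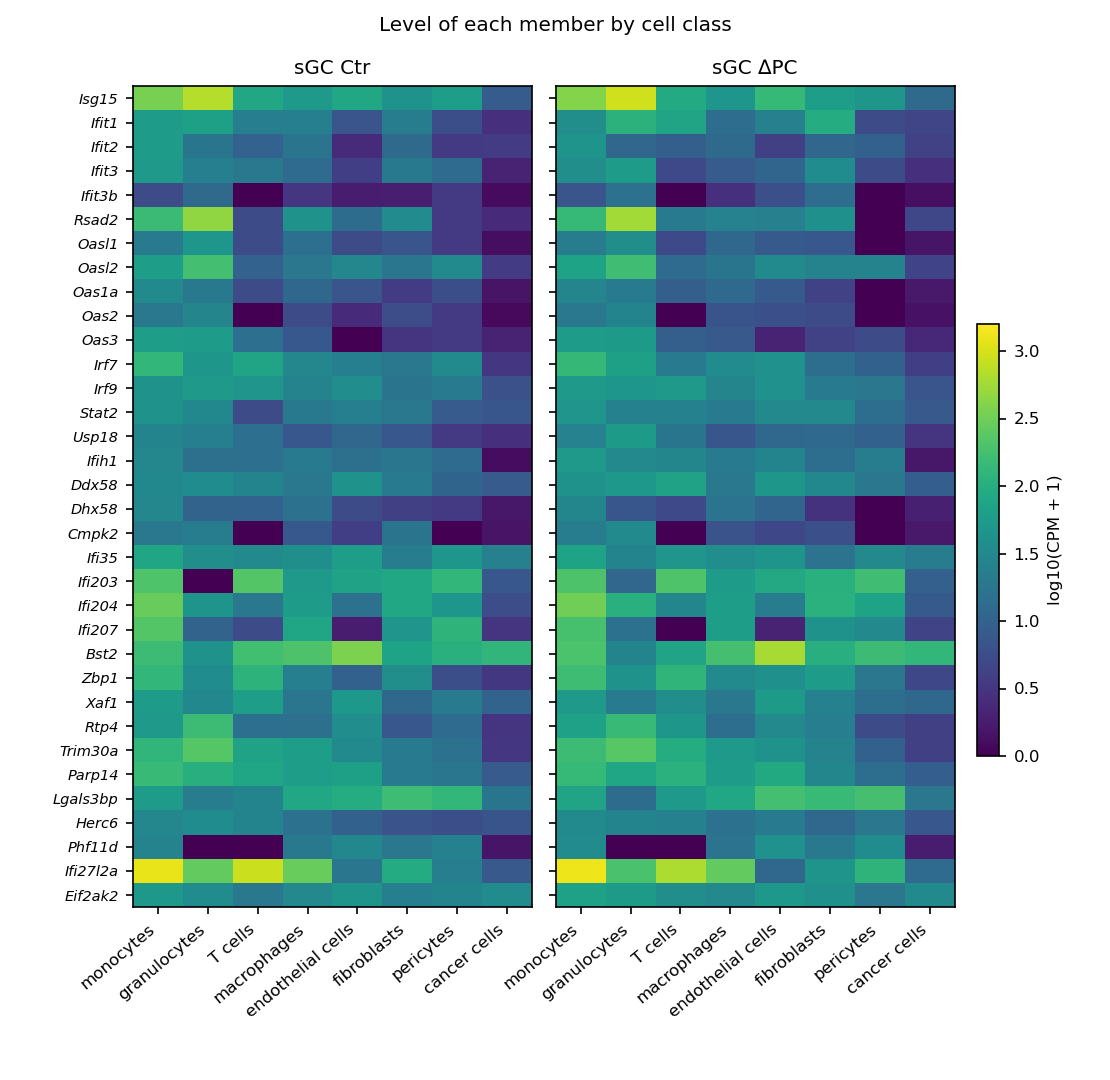
Level of each of the 34 members (rows) in 8 cell classes (columns) of sGC Ctr (left) and sGC ∆PC (right), as log10(CPM + 1) by color. Ifi27l2a is brightest in monocytes and T cells, Isg15 and Rsad2 in granulocytes and Bst2 in ECs in both panels, and the cancer cell column is the darkest for 21 members in sGC Ctr and 18 in sGC ∆PC.

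Receptors and ligands of the pathway were measured in the same cells. Ifnar2 was at 153 and 145 CPM in macrophages and at 31.9 and 32.6 CPM in cancer cells (sGC Ctr and sGC ∆PC), and Ifnar1 at 82.1 and 74.6 CPM and at 11.7 and 11.9 CPM. The type I ligands were hardly seen. Ifnb1 gave 12 UMIs in 4 cells of sGC Ctr and 7 UMIs in 5 cells of sGC ∆PC, Ifna1 gave 1 UMI in sGC Ctr, and Ifna2, Ifna4 and Ifna5 had no UMI in either library. Ifng, the type II interferon, gave 27 UMIs in 12 cells and 55 UMIs in 36 cells. The type I ligand transcripts were thus close to the limit of detection in both libraries.

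In cancer cells the sum was slightly higher in sGC ∆PC, and the largest ratios lay in members at very low levels. From 7106 and 11192 cells, it was 295 and 331 CPM, a log2 ratio of 0.16 (interval 0.15 to 0.18). Of the 34 members 32 were higher in sGC ∆PC, while 52.4% of 15130 genes were, and the median member ratio was 0.43 against 0.01 over all genes. Intervals lay above 0 for 32 members and below 0 for 2, where they did for 29.9% and 25.5% of all genes in these deeply covered cells. At least 2-fold higher were 4 members, where 3.52% of genes were, and none was 2-fold lower, where 0.119% were. The most abundant members hardly differed: Bst2 was at 128 and 132 CPM, Eif2ak2 (the kinase PKR, which halts translation) at 33.98 and 32.4 CPM and Ifi35 at 24.1 and 22.0 CPM. These last were the only lower members in cancer cells, with log2 ratios of -0.07 and -0.13.

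The members farthest above 0 in cancer cells were scarce. Rsad2 gave 590 and 1206 UMIs, 1.48 and 3.75 CPM (log2 1.34, 1.20 to 1.49). Oas2, which makes the 2′-5′ oligoadenylate that activates RNase L, gave 80 and 145 UMIs, 0.200 and 0.451 CPM (log2 1.17, 0.77 to 1.58). Ifih1 (the RNA sensor MDA5) gave 114 and 202 UMIs, 0.286 and 0.629 CPM (log2 1.14, 0.80 to 1.48).

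Macrophage RNA moved in the same direction in these cells. The 8 macrophage markers summed to 69.7 CPM in cancer cells of sGC Ctr and 139 CPM in those of sGC ∆PC, against 14765 and 12244 CPM in macrophages. In the 638 and 1719 cancer cells with no UMI of a macrophage or monocyte marker, a comparison added after the data were seen, the members summed to 299 and 308 CPM (log2 0.04, -0.01 to 0.09). There 15 of the 25 members with enough UMIs were higher, where 49.7% of genes were, and Ifi207, Ifi27l2a, Rsad2, Rtp4, Trim30a, Ifi204, Xaf1 and Ifi203 had intervals above 0, 8 of the 25, where 17.3% of genes did. Eif2ak2 had an interval below 0 (-0.31, -0.47 to -0.14), where 14.7% of genes did. Ifit1 (-0.44) and Ifit3 (-0.42), both higher over all cancer cells, were on the lower side there, with intervals that spanned 0. Cells of the sGC ∆PC library without such a UMI were also shallower, with a median of 8175 UMIs against 33208.5.

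Cancer cells sorted by marker level gave ratios that were as small. With up to 0.5 marker UMIs per 10000, where depths were alike (medians 53353 and 53543.5 UMIs), the sum was 283 and 300 CPM and 25 of 31 members were higher in sGC ∆PC. From 0.5 to 1 it was 287 and 312 CPM with 33 of 34 higher. From 1 to 2 it was 312 and 324 CPM with 19 of 32 higher, at medians of 49026 and 16003 UMIs. Above 2 it was 392 and 398 CPM with 16 of 34 higher, with medians of 46198 and 9716 UMIs in that last bin. Over these 4 bins the sum rose with the marker level in both libraries, but in cells without a marker UMI it was 299 and 308 CPM, above the lowest bin. The log2 ratio of the sum was between 0.02 and 0.12 in all 5. The share of all genes that were higher was not computed by bin, so the member counts stand without a background.

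In macrophages the sum was slightly lower in sGC ∆PC, and members lay on both sides of 0. Their median log2 ratio was -0.06, against -0.05 over all genes. The sum over 1890 and 2557 cells was 1367 and 1280 CPM, a log2 ratio of -0.09 (-0.12 to -0.07). Of the 34 members 15 were higher in sGC ∆PC, where 40.6% of 11604 genes were. Intervals lay below 0 for 11 of the 34 members and above 0 for 3, where they did for 24.5% and 13.3% of all genes. No member reached 2-fold in either direction, where 0.879% of genes were 2-fold higher and 0.353% lower.

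The members farthest below 0 in macrophages were genes of the Ifit locus and Rsad2. Ifit1, which binds viral RNA that lacks the host's cap methylation, gave 553 and 272 UMIs, 23.3 and 12.9 CPM (log2 -0.85, -1.06 to -0.64). Rsad2 was at 42.1 and 24.9 CPM (-0.76, -0.92 to -0.61), and Ifit3 at 12.1 and 7.18 CPM (-0.75, -1.05 to -0.46). Ifit2, next to them on chromosome 19, was at 15.97 and 11.8 CPM (-0.44, -0.67 to -0.20). These ratios rested on few cells: without the 5 cells richest in members in each library, the ratio of Ifit1 was -0.25 and that of Rsad2 -0.17. With the limit on cancer marker RNA halved Ifit1 was at -0.30, Ifit3 at -0.03 and Rsad2 at 0.16.

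The higher members of macrophages included Zbp1, a sensor of Z-form nucleic acid that can start cell death, at 22.8 and 32.5 CPM (0.51, 0.34 to 0.67), and Irf7, the factor that raises interferon-alpha genes, at 29.4 and 33.8 CPM (0.20, 0.05 to 0.35). Irf7 turned below 0 with Leiden clusters (-0.06) and with cells thinned to 2000 UMIs (-0.08). Oas2 was at 4.59 and 5.71 CPM with an interval that spanned 0. The abundant Ifi27l2a, Bst2, Lgals3bp and Ifi207 had log2 ratios of -0.05, -0.16, 0.01 and -0.36. The macrophages of sGC ∆PC were shallower, with a median of 5451 UMIs against 11658, and 553 barcodes lay within a factor of 1.25 of the gate's cut, on either side of it, against 154 in sGC Ctr. The part of these differences in the ratios was not tested.

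Genes that respond mainly to interferon-gamma moved otherwise in macrophages. All 7 measured of 9 such genes were higher in sGC ∆PC, 6 of them with an interval above 0 (13.3% of all genes), with a median log2 ratio of 0.72. H2-Aa, a chain of MHC class II, was at 612 and 1036 CPM (0.76, 0.73 to 0.79), and Ciita, which switches MHC class II genes on, at 14.5 and 27.2 CPM (0.91, 0.71 to 1.10). Irf1, a transcription factor that interferon-gamma raises, is not among those 9 genes and was at 27.0 and 44.4 CPM (0.72, 0.57 to 0.87). It was read in a list of 8 kinases and transcription factors of interferon signaling. Of those 8, 5 were higher and 3 lower in sGC ∆PC, with a median of 0.07. The members of the type I list had a median of -0.06 in the same cells, and all genes a median of -0.05.

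Monocytes held the highest sum of the 8 classes and small ratios. The sum was 4068 and 4328 CPM over 353 and 375 cells, a log2 ratio of 0.09 (0.05 to 0.13), and 19 of 33 measured members were higher, where 47.5% of genes were. Intervals lay above 0 for 10 members and below 0 for 3, where they did for 6.36% and 7.09% of genes. No member was 2-fold higher or lower, where 0.468% and 0.146% of genes were. Isg15 was at 347 and 408 CPM (0.23, 0.09 to 0.38), Ifi204 at 287 and 322 CPM (0.17, 0.01 to 0.33) and Ifi203 at 209 and 203 CPM (-0.04).

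The RNA sensors Ifih1 and Ddx58 were on the higher side in monocytes, and Ifit1 and Ifit3 on the lower. Dhx58 hardly differed, at 29.3 and 28.3 CPM (-0.05, -0.58 to 0.47). Ifih1 gave 64 and 111 UMIs, 29.3 and 50.7 CPM (0.79, 0.33 to 1.26), and Ddx58 (RIG-I) 65 and 93 UMIs, 29.8 and 42.5 CPM (0.51, 0.04 to 0.99). Eif2ak2 was at 50.0 and 66.6 CPM (0.42, 0.05 to 0.79), but at a log2 ratio of -0.06 with the gates doubled. Ifit1 was at 55.9 and 37.4 CPM (-0.58, -1.001 to -0.16), Ifit3 at 51.8 and 37.0 CPM (-0.49, -0.92 to -0.06), and Ifit2 at 55.9 and 44.3 CPM with an interval that spanned 0. With Leiden clusters in place of gates Ifit1 turned to 0.48, Isg15 to -0.12 and Ifi204 to -0.19.

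**Figure D3:**
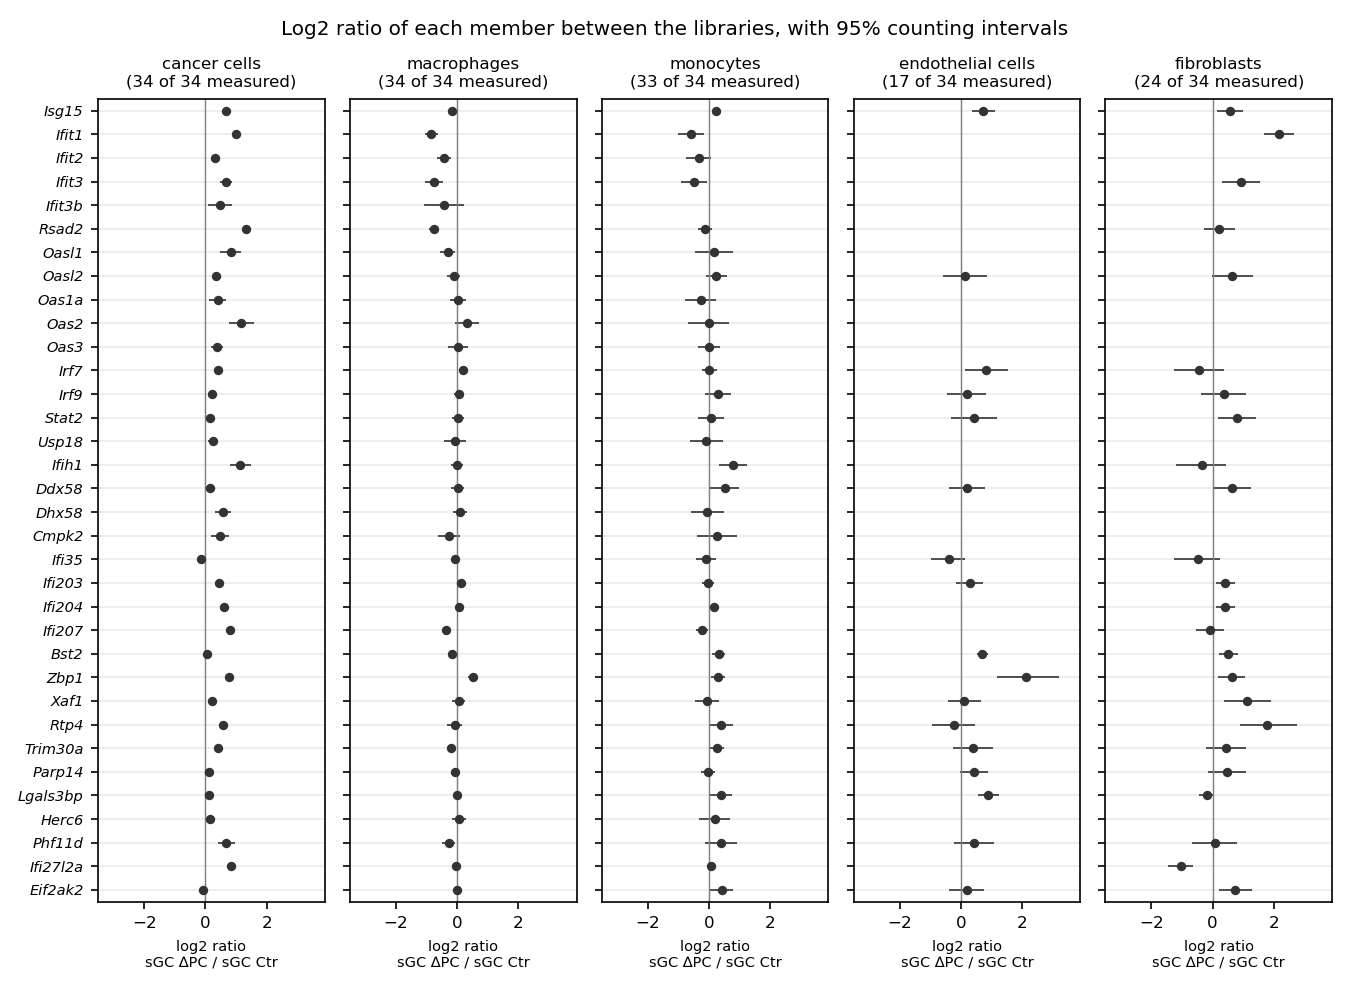
Log2 ratio of CPM, sGC ∆PC over sGC Ctr (x), for each member with at least 50 UMIs over both libraries (rows) in 5 cell classes; bars are exact 95% counting intervals and the grey line marks 0. In cancer cells 32 of 34 points lie right of 0, in macrophages Ifit1, Ifit3 and Rsad2 lie left of it, and in ECs 15 of 17 points lie right of it.

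Among the 8 classes, ECs held the largest ratio of the sum, and it rested on few cells. From 51 and 46 cells, 1614 and 1767 member UMIs gave 1196 and 1765 CPM, a log2 ratio of 0.56 (0.46 to 0.66). Of 17 measured members 15 were higher in sGC ∆PC, where 50.7% of 5650 genes were, and 5 had an interval above 0 and none below it, where 7.95% and 8.04% of genes did. The median member ratio was 0.40 against 0.01 over all genes. In sGC ∆PC 1 cell held 18.8% of the member UMIs, and without the 5 cells richest in members in each library the ratio was 0.31. With Leiden clusters, which put 83 and 180 barcodes in this class, 50 and 44 of them also in the gate, it turned to -0.32.

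Zbp1 lay farthest above 0 in ECs. It gave 12 and 39 UMIs, 8.89 and 39.0 CPM (2.13, 1.17 to 3.20), the 1 member at least 2-fold higher, where 0.867% of genes were, and it kept its direction in all 6 settings that gave a value (lowest 1.00). Lgals3bp was at 94.9 and 177 CPM (0.90, 0.56 to 1.24), Irf7 at 23.0 and 40.9 CPM (0.83, 0.13 to 1.56), Isg15 at 82.3 and 137 CPM (0.73, 0.36 to 1.11) and Bst2 at 365 and 595 CPM (0.70, 0.53 to 0.88). All 4 turned below 0 with Leiden clusters, Isg15 also without the 5 richest cells (-0.72) and Irf7 also after thinning (-0.39). No member was 2-fold lower, where 0.637% of genes were. Ifi35 and Rtp4, at 59.3 and 44.9 CPM and at 36.3 and 31.0 CPM, were the 2 lower ones, with intervals that spanned 0. Macrophage markers in ECs summed to 57.1 and 96.9 CPM. Their part in the ratios was not tested.

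The interferon-gamma genes were higher in ECs as well, but not in every class. All 6 measured ones had an interval above 0, where 7.95% of genes did, with a median of 1.42. Cxcl9, a T cell attractant, was at 145 and 734 CPM (2.34, 2.11 to 2.57), and Ubd, a ubiquitin-like modifier, gave 4 and 165 UMIs, 2.96 and 165 CPM (5.80, 4.41 to 7.69). In cancer cells all 8 measured ones were higher with intervals above 0 (median 1.31), where 29.9% of genes had such intervals. Macrophage marker RNA was also higher there. In cancer cells without a macrophage or monocyte marker UMI, H2-Aa (2.52, 2.19 to 2.85) and H2-Ab1 (2.62, 2.30 to 2.96) kept intervals above 0. Cxcl9 (0.03, -0.35 to 0.40), Gbp2 (0.20, -0.07 to 0.48) and Gbp4 (0.71, -0.13 to 1.57) had intervals that spanned 0 there. Ubd (15 and 5 UMIs), Ciita (5 and 6 UMIs) and Gbp5 (9 and 8 UMIs) had too few UMIs there for a ratio. The part of macrophage RNA in these ratios was not tested. In monocytes 6 of 7 were higher (median 0.19), where 47.5% of genes were. Intervals lay above 0 for 3 of them, where they did for 6.36% of genes. Fibroblasts differed in direction, with 3 of 4 measured ones lower (median -0.06), though with intervals that spanned 0. Cxcl9 was higher (1.62, 1.40 to 1.83), where 45.7% of genes were higher and 6% had intervals above 0. In conventional dendritic cells Cxcl9 (-2.51, -3.14 to -1.93), H2-Aa (-0.41, -0.50 to -0.31) and H2-Ab1 (-0.31, -0.41 to -0.22) were lower. In pericytes Cxcl9 was the only one measured, with 4 and 166 UMIs, 9.83 and 726 CPM (6.21, 4.82 to 8.10). There 1.09% of genes were at least 2-fold higher. Macrophage markers summed to 90.9 and 153 CPM in those pericytes, and their part in the ratio was not tested.

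Fibroblasts gave a ratio whose direction depended on the processing. The sum was 969 and 1213 CPM over 101 and 146 cells, a log2 ratio of 0.32 (0.24 to 0.41), with 18 of 24 measured members higher in sGC ∆PC, where 45.7% of genes were. Intervals lay above 0 for 12 members and below 0 for 1, where they did for 6% and 9.54% of genes, and 3 members were 2-fold higher and 1 was 2-fold lower, where 0.739% and 1.42% of genes were. In each library 1 cell held much of it, 19.2% and 23.0% of the member UMIs, and the median cell of sGC ∆PC had 2938.5 UMIs against 22112. Weighting cells equally gave -0.30 and thinning -0.33. Ifit1 gave 49 and 147 UMIs, 21.1 and 94.0 CPM (2.15, 1.68 to 2.65), but -1.66 with the cancer marker limit halved. Rtp4, a receptor chaperone, gave 15 and 35 UMIs (1.79, 0.88 to 2.77) and kept its direction in all 7 settings, and Xaf1, a partner of inhibitors of apoptosis, was at 11.2 and 24.3 CPM (1.12, 0.36 to 1.90). Ifi27l2a was lower, at 91.7 and 44.7 CPM (-1.04, -1.45 to -0.64), but 0.42 under Leiden clusters, and Ifi35 and Irf7 had intervals that spanned 0.

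Pericytes, the cells in which Gucy1b1 was deleted, gave too few UMIs for most members. The sum was 941 and 1059 CPM over 33 and 25 cells, and its log2 ratio of 0.17 had an interval of -0.07 to 0.41. Only 4 members were measured, and 3 of them, Ifi203, Bst2 and Lgals3bp, were at 130 and 166, 106 and 153, and 130 and 179 CPM with intervals that spanned 0, where 42.6% of genes were higher. Ifi207, an Ifi200 gene, gave 49 and 7 UMIs, 120 and 30.6 CPM (-1.97, -3.36 to -0.82), and was lower in all 6 settings that gave a value. It was the 1 member at least 2-fold lower, where 1.81% of genes were, and none was 2-fold higher, where 1.09% were.

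Granulocytes and T cells had few measured members. In 192 and 221 granulocytes the sum was 2888 and 3287 CPM, a log2 ratio of 0.19 (0.08 to 0.29), with 6 of 11 measured members higher, where 50.5% of genes were. At least 2-fold higher was 1 member, where 1.33% of genes were, and none was 2-fold lower, where 1.96% were. Isg15 (0.39, 0.18 to 0.61) and Rsad2 (0.30, 0.03 to 0.57) were higher, Ifi204 gave 19 and 51 UMIs (1.25, 0.47 to 2.09), Ifit1 28 and 55 UMIs (0.80, 0.12 to 1.51), and Ifi27l2a was lower at 272 and 190 CPM (-0.52, -0.93 to -0.11). Trim30a was at 228 and 231 CPM, and Parp14 (100 and 76.3 CPM) and Oas3 (58.2 and 53.6 CPM) had intervals that spanned 0. Rsad2 turned to -0.35 under Leiden clusters and Ifit1 was at 0.01 there and with the gates doubled. Granulocyte markers took 97507 CPM of sGC Ctr granulocytes and 69717 CPM of those of sGC ∆PC. In 58 and 54 T cells the ratio of the sum was -0.07 (-0.26 to 0.12). Of 4 measured members 1 was higher, where 39.6% of genes were: Zbp1 was at 118 and 123 CPM, Ifi203 at 217 and 209 CPM, Ifi27l2a at 873 and 647 CPM (-0.43, -0.75 to -0.12) and Bst2 gave 37 and 18 UMIs (-1.18, -2.08 to -0.34), the last with 0.09 under Leiden clusters. Bst2 was the 1 member 2-fold lower, where 1.25% of genes were, and none was 2-fold higher, where 1.34% were.

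Cells of a class differed widely in their members. The median macrophage of sGC Ctr held 7.93 member UMIs per 10000 and that of sGC ∆PC 7.78, and the cell at the upper end of the middle range (90th percentile) 25.2 and 24.3. Medians were 25.6 and 29.1 in monocytes, 13.7 and 11.6 in granulocytes and 2.46 and 2.81 in cancer cells. At an equal depth of 2000 UMIs per cell, 10 or more member UMIs were found in 23.7% and 30.1% of monocytes (95% Clopper-Pearson intervals 19.4 to 28.5 and 25.01 to 35.7%). The share was 16.7% and 18.0% in granulocytes, 4.06% and 3.41% in macrophages (3.21 to 5.05 and 2.63 to 4.36%), and 0.199% and 0.287% in cancer cells (0.109 to 0.334 and 0.195 to 0.407%). Thinning left out 3 and 73 monocytes, 78 and 93 granulocytes, 16 and 741 macrophages and 68 and 390 cancer cells that were shallower. Without thinning, 50 or more member UMIs per 10000 were found in 20.1% and 25.3% of monocytes and in 3.70% and 2.46% of macrophages. The intervals of the libraries overlapped in each of these classes at equal depth. Unlike the intervals of levels and ratios, these take the cells of a library as independent draws. They hold no spread between animals, so their overlap cannot decide whether the shares differ between the groups.

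**Figure D4:**
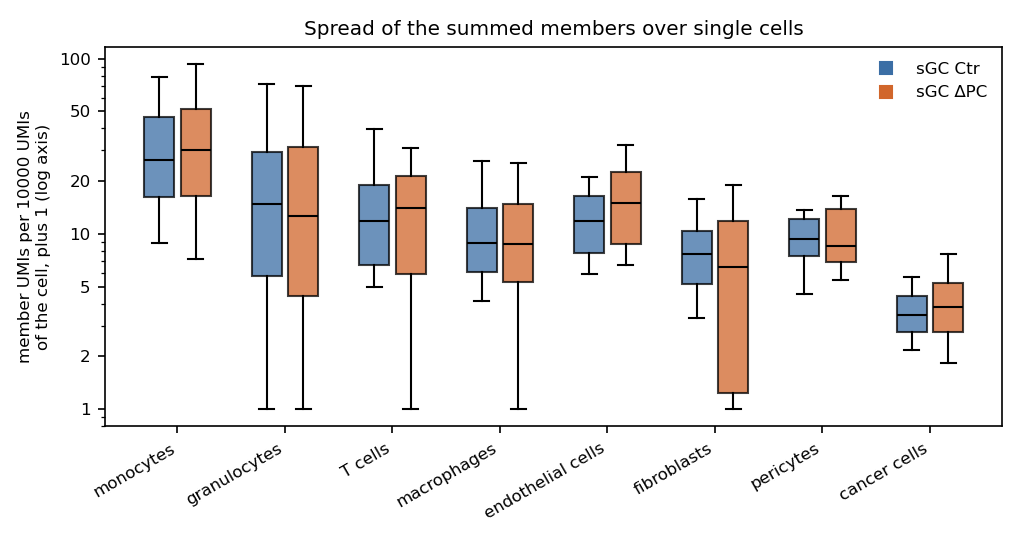
Member UMIs per 10000 UMIs of a cell, plus 1, on a log axis (y) in 8 cell classes (x) of sGC Ctr (blue) and sGC ∆PC (orange); boxes span the 25th to the 75th percentile of cells with the median as a line, and whiskers the 10th to the 90th. Medians of the libraries lie close together in each class, and the lower whisker reaches cells without a member UMI in granulocytes of both libraries and in T cells, macrophages and fibroblasts of sGC ∆PC.

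In the 4 classes with most thinned cells, cells high in some members were high in others. The list was split by alternate places into 2 sublists, and in thinned cells the top 10% by one sublist were taken and the other sublist was read. In macrophages that other sublist was 4.66-fold higher in the top cells than in the rest in sGC Ctr and 4.10-fold in sGC ∆PC. It was 7.11- and 5.36-fold higher in monocytes and 8.96- and 13.7-fold in granulocytes, and 1.82- and 1.93-fold in cancer cells. Across cells, the Pearson correlation of the sublists was 0.67 and 0.61 in macrophages (n = 1874 and 1816), 0.72 and 0.72 in monocytes (n = 350 and 302), 0.75 and 0.78 in granulocytes (n = 114 and 128) and 0.43 and 0.31 in cancer cells, as a description of cells that share a library. In ECs the fold was 1.72 and 1.99 with 5 and 4 top cells, and in pericytes, with 3 and 2 top cells, it was 0.513 in sGC Ctr and 1.68 in sGC ∆PC.

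The members differed widely in how far they followed the others. In macrophages all 30 members with enough UMIs in sGC Ctr, and all 30 in sGC ∆PC, were higher in cells that were top by the sublist without them, with a median of 4.19- and 4.07-fold. The folds of genes outside the list were not computed in these cells. Whether the members vary together more than other genes do is thus not shown. Ifit1, Ifit2, Ifit3 and Rsad2 were mostly found there. In sGC Ctr the top 187 macrophages held 94.6% of the Ifit2 UMIs, 89.3% of those of Ifit1, 87.8% of those of Ifit3 and 87.8% of those of Rsad2, and the top 182 of sGC ∆PC held 88.6, 85.5, 77.4 and 82.1%. For Cmpk2, the divergent neighbor of Rsad2, the top cells held 19 of 21 UMIs in the sGC Ctr library and 5 of 11 in the other. Isg15 followed with 67.2% and 53.0%, and Irf7 with 53.8% and 55.6%.

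The top macrophages also held 74.4% and 53.6% of the Oas3 UMIs, 63.6% and 72.2% of those of Usp18 and 53.6% and 50.9% of those of Oasl2. For Rtp4 the shares were 58.7% and 50%, and all of the 8 and 6 UMIs of Ifit3b lay there. Most UMIs of the remaining members lay outside the top macrophages. The top cells held 19.2% and 18.5% of Bst2 UMIs, 22.0% and 20.9% of those of Lgals3bp, 21.0% and 18.3% of those of Eif2ak2 and 25.1% and 23.6% of those of Ifi27l2a. Irf9, a subunit of the transcription factor itself, was at 25.3% and 12.2%. In monocytes the top cells held 87.6% and 79.5% of the Rsad2 UMIs, and 18.3% of the Ifi27l2a UMIs in sGC Ctr. In granulocytes, the top 11 and 13 cells held 74.0% and 81.0% of the Rsad2 UMIs, and all of the 6 and 15 UMIs of Cmpk2.

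**Figure D5:**
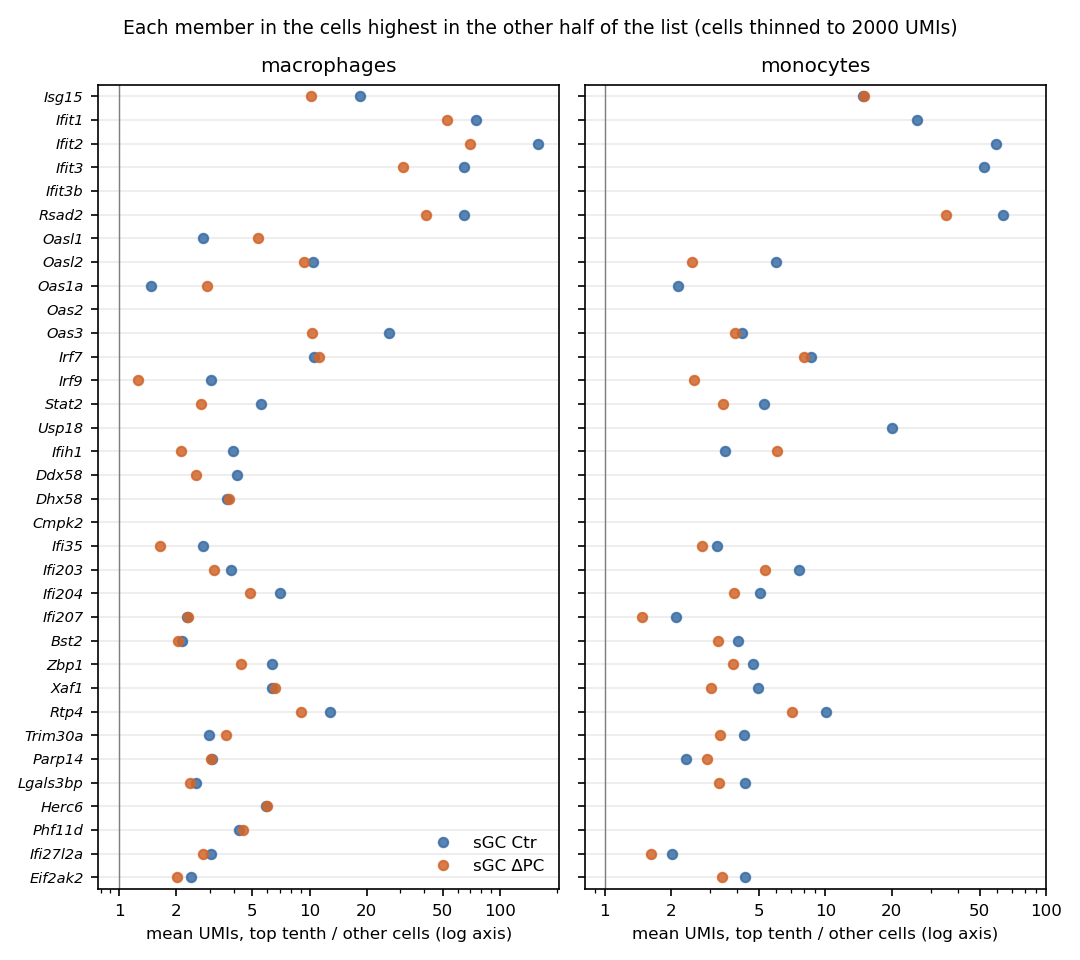
Mean UMIs of each member (rows) in the top 10% of cells by the sublist that does not hold it, divided by the mean in the other cells (x, log axis), in macrophages (left) and monocytes (right) of sGC Ctr (blue) and sGC ∆PC (orange), with cells thinned to 2000 UMIs; members with too few UMIs have no point. Ifit1, Ifit2, Ifit3 and Rsad2 lie far to the right in macrophages of both libraries, at folds that rest on few UMIs outside the top cells, while Bst2, Ifi207 and Eif2ak2 lie close to 2 in macrophages.

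The 3 members farthest below 0 in macrophages, Ifit1, Rsad2 and Ifit3, were held by few cells. The top cells of sGC Ctr held 101 of 115 Rsad2 UMIs and those of sGC ∆PC held 87 of 106. Ifit1 gave 75 of 84 and 47 of 55, and Ifit3 36 of 41 and 24 of 31. Without the 5 macrophages richest in members in each library, the ratio of the sum was -0.05 in place of -0.09.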

How the data were processed

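The authors made 3′ single-cell libraries from pooled tumor cells, counted reads with Cell Ranger 6.1.1 on mm10 and deposited raw UMI counts per gene and barcode, with empty barcodes already removed. Steps that could change a level are the dropping of reads that match several genes and the depth of each library. The rest was computed here in Python 3.11.15 with numpy 2.4.6, scipy 1.17.1 and, for clusters, scanpy 1.11.5.

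Barcodes were kept if under 10% of their UMIs were mitochondrial and if neither log UMIs nor log genes lay over 3 median absolute deviations from the median of their library. The study kept fewer cells after further steps, slightly fewer than here for sGC Ctr and far fewer for sGC ∆PC. Its cell labels were not used here. A barcode passed a class gate with at least 2 distinct markers and a marker sum over a cut per 10000 UMIs (40 for macrophages, 20 for monocytes and ECs, 7 for cancer cells, 120 for fibroblasts, 30 for pericytes, 200 for granulocytes, 10 for T cells), and was left out as mixed with at least 2 UMIs over the limit of another class. Cuts and limits were set after the counts were seen. Mixed barcodes (1030 and 4181) stand for doublets, and no doublet caller was run.

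UMIs were summed over the cells of a class and scaled to CPM. A log2 ratio needed 50 UMIs over both libraries, and its interval is an exact conditional binomial one; levels have exact Poisson intervals. Ratio steps were tested on simulated data. No other column of sample values was present. The members, the pathway and marker lists and the alternatives were chosen with earlier results of these data known. Named in each class were the 4 members with the highest CPM and the 3 farthest from 0 in each direction, with others added after their values were seen. Promoter windows are RefSeq's, and were at hand for 26 members. One gene of the pathway lists is not reported here.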

Additional observations from a re-analysis of the deposited data

Results flagged for a closer look

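In sGC ∆PC, 11 members were higher in cancer cells and lower in macrophages, with intervals on opposite sides of 0: Isg15, Ifit1, Ifit2, Ifit3, Rsad2, Oasl1, Ifi207, Bst2, Trim30a, Phf11d and Ifi27l2a. The same was true of 6.98% of the 11440 genes measured in both classes. In cancer cells without a macrophage or monocyte marker UMI, Ifit1 (-0.44), Ifit3 (-0.42) and Bst2 (-0.03) were on the lower side. The opposite directions drew attention to them, and the difference between the classes was not tested. Macrophage markers summed to 69.7 CPM in cancer cells of sGC Ctr and to 139 CPM in those of sGC ∆PC.

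Barcodes that entered no comparison also held the members. Those that passed no gate had 768 CPM in sGC Ctr (1340 barcodes) and 954 CPM in sGC ∆PC (3633 barcodes, median 1861 UMIs). Mixed barcodes had 727 and 696 CPM. All 4 levels lie far above the limit that a count of 0 allows (0.176 CPM at most).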

How the results depend on the processing

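The sum in cancer cells stayed on the higher side in sGC ∆PC under all 12 alternatives (0.044 to 0.43, the latter a median over members). The lowest of these values, in cancer cells without a macrophage or monocyte marker UMI, had an interval that spanned 0 (-0.01 to 0.09). The sum in macrophages stayed lower under 10 of 11. In ECs and in monocytes it stayed higher under 10 of 11 each, and turned to -0.32 and -0.035 with Leiden clusters. The direction in fibroblasts, granulocytes, T cells and pericytes depended on the processing as well, and the interval of T cells and pericytes spanned 0 as reported. The cause of each change was not tested. Each value here is a log2 ratio, sGC ∆PC over sGC Ctr, and is that of the sum unless a gene or the median over members is named.

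With the gates doubled the values were 0.21 in cancer cells, 0.0058 in macrophages, -0.019 in granulocytes, -0.11 in pericytes and -0.056 for Eif2ak2 in monocytes. With mixed barcodes kept they were 0.20 in cancer cells, 0.024 in granulocytes, -0.29 in T cells, 0.43 in ECs, 0.49 in pericytes and -0.029 for Rsad2 in granulocytes. With cells thinned to 2000 UMIs they were 0.24 in cancer cells, 0.025 in monocytes, 0.45 in granulocytes, -0.33 in fibroblasts, 0.40 in ECs and -0.20 in pericytes; for genes, 0.0024 for Ifi27l2a and -0.079 for Irf7 in macrophages, -0.40 for Ifi204, -0.73 for Ifi203 and -0.015 for Xaf1 in fibroblasts and -0.39 for Irf7 in ECs. With cells weighted equally they were 0.30 in cancer cells, -0.16 in macrophages, 0.076 in granulocytes, -0.31 in T cells, -0.30 in fibroblasts and -0.12 in pericytes. The median over members was 0.43 in cancer cells, -0.058 in macrophages, 0.018 in granulocytes, 0.46 in fibroblasts, 0.40 in ECs and 0.41 in pericytes. Without the 3 members with most UMIs it was 0.28 in cancer cells and 0.27 in T cells, and relative to the median gene -0.048 in macrophages.

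With the limit on cancer marker RNA halved the values were -0.041 in macrophages, -0.38 in fibroblasts, -0.20 in pericytes, 0.16 for Rsad2 in macrophages, and -0.18 for Ifi203 and -1.66 for Ifit1 in fibroblasts. With Leiden clusters they were -0.33 in macrophages, -0.035 in monocytes, -0.032 in granulocytes, 0.79 in fibroblasts and -0.32 in ECs; for genes, -0.058 for Irf7 in macrophages, -0.12 for Isg15, -0.19 for Ifi204 and 0.48 for Ifit1 in monocytes, -0.35 for Rsad2 in granulocytes, 0.093 for Bst2 in T cells, 0.42 for Ifi27l2a in fibroblasts, and -0.073 for Bst2, -0.075 for Lgals3bp, -0.61 for Isg15 and -0.078 for Irf7 in ECs. No pericyte cluster was found in sGC ∆PC, so that alternative gave no value there.

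Of the alternatives chosen after the data were seen, leaving out the 5 cells richest in members gave -0.052 in macrophages, 0.14 in monocytes, 0.22 in fibroblasts, 0.31 in ECs and -0.72 for Isg15 in ECs. Cancer cells without a macrophage or monocyte marker UMI gave 0.044, with -0.029 for Bst2 and -0.11 for Lgals3bp. No paired analysis was possible because each group has 1 library. Of the 8 classes compared, depth limits pericytes and T cells most, where 4 of 34 members had 50 UMIs.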
